A study of Mus musculus with 10 samples.

Results

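Insulin signaling and IGF binding protein genes were examined in livers in which hepatocytes had lost histone H3.3. The 10 genes were picked by symbol in the count table and were Insr, Igf1r, Irs1, Irs2, Akt2, Foxo1, Igfbp1, Igfbp2, Igfbp3 and Igfbp4. They are 10 of 55421 identifiers, and all 10 were among the 22449 genes with enough counts to be tested. RNA came from whole livers of 10 male mice, which were injected retro-orbitally with AAV8 at 6 months of age and sampled 3 weeks later. The H3.3 KO group held 4 C57BL/6 mice with floxed alleles of both H3.3 genes (H3f3a fl/fl, H3f3b fl/fl) and AAV8 Tbg-Cre. The WT Cre controls were 3 wildtype mice with the same Cre virus, and the MCS controls were 3 mice with the floxed alleles and AAV8 Tbg-MCS, which carries no Cre. The Tbg promoter acts in hepatocytes, so other liver cells kept their H3.3 genes.

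After a meal, insulin binds its receptor on the hepatocyte, the receptor phosphorylates the adaptors IRS1 and IRS2, and these start a kinase relay whose main liver arm is AKT2. AKT2 phosphorylates FOXO1 and drives it out of the nucleus, which lowers FOXO1 target genes such as those of glucose production and, in the liver, Igfbp1 and Irs2. The liver also secretes IGF1 and a set of IGF binding proteins, which carry IGFs in blood and set how much reaches the IGF1 receptor.

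The windows upstream of Igfbp1, Irs1 and Irs2 are shown because these 3 genes held a letter match to the core of the insulin response element, a DNA element that FOXO factors bind. Each window covers the 250 bases before the RefSeq start (GRCm38.p6, the build also called mm10), is printed 5′ to 3′ on the strand of its gene, and has CAAAACA or its reverse complement TGTTTTG in capitals. The Igfbp1 window is chr11:7197537-7197786 on the plus strand, that of Irs1 chr1:82291440-82291689 on the minus strand, and that of Irs2 chr8:11008930-11009179 on the minus strand.
Igfbp1: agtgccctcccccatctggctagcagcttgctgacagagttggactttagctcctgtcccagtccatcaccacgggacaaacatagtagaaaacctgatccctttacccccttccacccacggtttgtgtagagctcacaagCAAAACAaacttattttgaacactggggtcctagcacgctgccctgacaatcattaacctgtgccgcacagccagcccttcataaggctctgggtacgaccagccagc
Irs1: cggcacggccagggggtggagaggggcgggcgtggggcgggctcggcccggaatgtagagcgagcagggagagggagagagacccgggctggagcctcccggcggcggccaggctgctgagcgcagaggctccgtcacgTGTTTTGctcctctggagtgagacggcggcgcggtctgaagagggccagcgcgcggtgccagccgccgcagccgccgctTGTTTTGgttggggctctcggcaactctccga
Irs2: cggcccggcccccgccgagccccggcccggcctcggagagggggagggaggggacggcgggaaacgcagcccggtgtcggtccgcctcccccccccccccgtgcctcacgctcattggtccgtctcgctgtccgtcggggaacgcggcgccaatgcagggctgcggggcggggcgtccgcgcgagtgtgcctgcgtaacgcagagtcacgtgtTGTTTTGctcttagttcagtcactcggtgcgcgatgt
The match began 108 bases before the start in Igfbp1 and 37 in Irs2, and the matches in Irs1 began 111 and 32 bases before it. Windows were found for 9 of the 10 genes (none for Insr), and CAAAACA in either orientation was held by 3 of them and by 6.38% of all 27025 genes with a window. The related FOXO letters GTAAACA (reverse complement TGTTTAC) were in 0 of the 9 genes, against 3.54% of all genes. A match is a description of the letters only.

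The libraries held 14998426 counts (KO 1, the shallowest) to 26096141 counts. H3f3a ran from 59.9 to 63.7 CPM (counts scaled to library depth with TMM factors) in the controls and from 16.0 to 19.0 CPM in KO, and H3f3b from 136 to 204 and from 39.8 to 56.7 CPM. The genotype field reads HIRA fl/fl while the titles name H3f3a and H3f3b, and Hira ran from 5.48 to 8.71 CPM in the controls and from 6.25 to 6.68 CPM in KO. Count columns name samples only as control or KO, and values for 1 kind of control rest on a match of column numbers to library numbers. Hepatocyte markers were abundant in every liver, but 7 of 10 fell in KO against the 6 controls (16.6% of all genes), 3 against WT Cre (13.1%) and 8 against MCS (14.8%), and their summed level was 111700 to 164800 CPM in the controls and 83830 to 99440 CPM in KO. Of all genes 19.7% rose and 16.6% fell against the 6 controls, the comparison for the markers that follow. Kupffer cell and macrophage markers rose in 10 of 10 (summed 229 to 431 against 531 to 1172 CPM), stellate and fibroblast markers in 9 of 10 (218 to 280 against 497 to 796 CPM) and lymphoid markers in 7 of 10 (11.5 to 16.5 against 23.0 to 64.7 CPM). Of endothelial markers 3 of 10 rose (291 to 357 against 322 to 528 CPM), and of cholangiocyte markers 2 rose and 1 fell (104 to 141 against 112 to 138 CPM), with Cftr at 0 to 7 counts per liver. In whole liver RNA, fewer cells of a type and less RNA per cell cannot be told apart, and the part of these shifts in the results that follow was not tested.

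Akt2 was the gene of the 10 that was lower in KO against every kind of control, at about 60.0% of the control mean. Igfbp4 was lower against the 6 pooled controls as well, and Foxo1, Insr and Igfbp4 were lower and Irs1 higher against the MCS controls. Foxo1, Insr, Igfbp4 and Irs1 did not pass against WT Cre. For each of them the WT Cre controls also lay apart from the MCS controls, in the same direction as KO. The Insr call passed in only 3 of 18 alternatives. Igfbp3 was higher against the WT Cre controls but did not pass against MCS. Igfbp2 was the most variable of the genes in KO, with 3 livers above all controls and KO 1 below all of them.

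**Figure D1:**
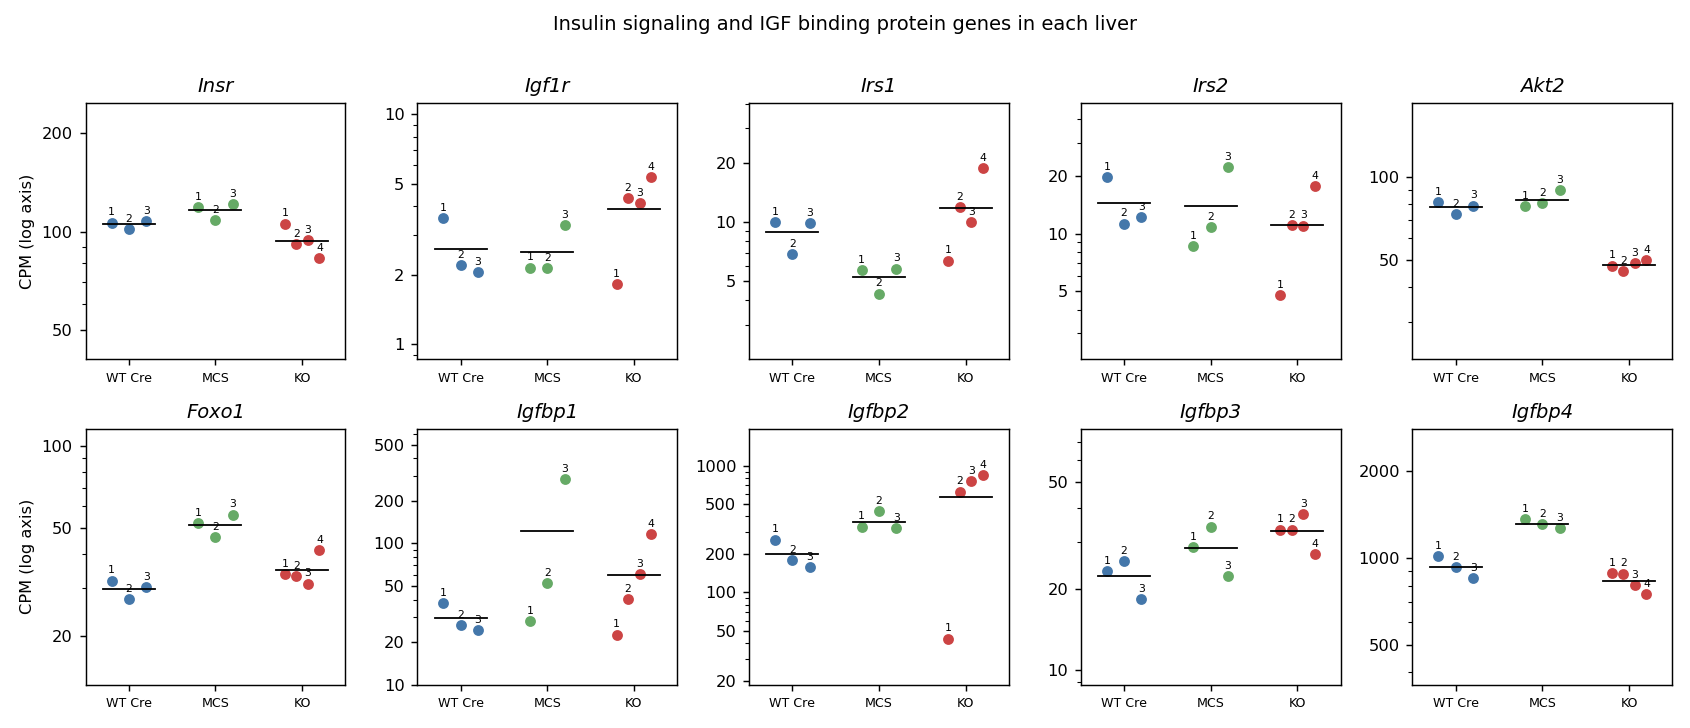
Level of each of the 10 genes in each liver, in CPM on a log axis that differs between panels, with points numbered by replicate and bars at the group mean (WT Cre n = 3, MCS n = 3, H3.3 KO n = 4). Akt2 in the 4 KO livers lies between 45.6 and 50.1 CPM and below all 6 controls, whereas Igfbp2 in KO 1 (43.3 CPM) lies apart from KO 2 to 4 (626 to 845 CPM).

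The receptors come first. Insr encodes the insulin receptor (ENSMUSG00000005534.10, mm10 chromosome 8 at 3122061 to 3279617, minus strand, overlapped by Gm16180 and Vmn2r-ps88 on the other strand). Insr stood at 107, 102 and 108 CPM in WT Cre 1 to 3 and at 119, 108 and 121 CPM in MCS 1 to 3. In KO 1 to 4 Insr stood at 106, 91.5, 94.2 and 83.3 CPM. All 4 KO livers were below the MCS controls, and KO 1 lay among the WT Cre controls. Against the 6 controls the log2 fold change of Insr was -0.24 (SE 0.0955, adjusted p 0.0626 in edgeR). Without KO 1 it was -0.31 (adjusted p 0.0165 in edgeR). Against the MCS controls Insr was lower (-0.31, SE 0.105, adjusted p 0.0381 in edgeR), but this call passed in 3 of 18 alternatives. It was lost without any 1 liver other than KO 1, and with counts scaled by library size only the fold change was -0.067. Against the WT Cre controls the log2 fold change of Insr was -0.17 (SE 0.105, adjusted p 0.255 in edgeR). WT Cre controls were also all below the MCS controls (-0.14, SE 0.113, adjusted p 0.741 in edgeR).

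Igf1r encodes the receptor for IGF1 and IGF2, which adult hepatocytes are known to carry at low levels (ENSMUSG00000005533.10, chromosome 7 at 67952827 to 68233668, plus strand). Igf1r stood at 3.54, 2.21 and 2.06 CPM in WT Cre 1 to 3 and at 2.16, 2.14 and 3.30 CPM in MCS 1 to 3, from 48 to 85 counts. KO 1 had 1.82 CPM of Igf1r, from 28 counts, and KO 2 to 4 had 4.31, 4.13 and 5.32 CPM. KO 2 to 4 lay above all 6 controls and KO 1 below them. The log2 fold change of Igf1r was 0.62 (SE 0.265, adjusted p 0.0855 in edgeR) against the 6 controls, 0.60 (adjusted p 0.195 in edgeR) against WT Cre and 0.65 (adjusted p 0.156 in edgeR) against MCS. Without KO 1 Igf1r was higher against the 6 controls (0.84, adjusted p 0.00563 in edgeR), the WT Cre controls (0.82, adjusted p 0.0192 in edgeR) and the MCS controls (0.87, adjusted p 0.0139 in edgeR). With library size only it passed against the 6 controls (0.81, adjusted p 0.0316 in edgeR). Per kilobase of exon, Insr made up 98.1% ± 0.461 (SD, n = 6) of the summed level of both receptor genes among controls, against 96.6% ± 1.48 (SD, n = 4) among KO livers. KO 1 (98.61%) was above all controls (97.35% to 98.54%), and KO 2 to 4 (96.29%, 96.53% and 95.03%) were below them.

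The adaptors differed from each other in pattern. Irs1 (ENSMUSG00000055980.2, chromosome 1 at 82233101 to 82291416, minus strand, overlapped by Gm9747 on the other strand) encodes an adaptor that insulin and IGF1 receptors share. Irs1 was 10.0, 6.90 and 9.88 CPM in WT Cre 1 to 3 and 5.70, 4.33 and 5.81 CPM in MCS 1 to 3. Irs1 in KO 1 to 4 was 6.38, 12.0, 9.99 and 18.8 CPM. The KO livers lay above all MCS controls and overlapped the WT Cre controls. The WT Cre controls also lay above all MCS controls (log2 fold change 0.76, SE 0.326, adjusted p 0.436 in edgeR). Irs1 was higher in KO than in the MCS controls, with a log2 fold change of 1.17 (SE 0.310, adjusted p 0.0146 in edgeR). This call was lost without MCS 2 (1.04, adjusted p 0.0650 in edgeR). Against WT Cre the log2 fold change of Irs1 was 0.41 (SE 0.298, adjusted p 0.341 in edgeR), and against the 6 controls 0.74 (SE 0.300, adjusted p 0.0778 in edgeR). Leaving out KO 1 took the latter past the threshold (0.93, adjusted p 0.0220 in edgeR), as did DESeq2 (0.75, adjusted p 0.0442).

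Irs2 (ENSMUSG00000038894.7, chromosome 8 at 10984681 to 11008458, minus strand, overlapped by 9530052E02Rik on the other strand) encodes the adaptor that falls in liver after feeding. Irs2 stood at 19.8, 11.3 and 12.2 CPM in WT Cre 1 to 3 and at 8.63, 10.8 and 22.4 CPM in MCS 1 to 3. KO 1 to 4 had 4.76, 11.1, 11.0 and 17.8 CPM of Irs2. The lowest liver was KO 1 and the highest MCS 3, and the groups overlapped. The log2 fold change of Irs2 was -0.34 (SE 0.365, adjusted p 0.520 in edgeR) against the 6 controls, and it passed in 0 of 18 alternatives. Against WT Cre it was -0.36 (SE 0.449, adjusted p 0.595 in edgeR) and against MCS -0.30 (SE 0.451, adjusted p 0.655 in edgeR), the latter turning to 0.21 without MCS 3. On the scale of CPM per kilobase, Irs1 took 26.6% ± 7.38 (SD, n = 6; range 15.2% to 35.9%) of the summed Irs1 and Irs2 level in the controls. In KO this share was 42.9% ± 3.94 (SD, n = 4; range 38.6% to 48.1%), above all controls.

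Akt2 (ENSMUSG00000004056.15, chromosome 7 at 27591552 to 27640826, plus strand) encodes the AKT kinase that carries most of the insulin signal in liver. Akt2 was 81.1, 73.3 and 78.8 CPM in WT Cre 1 to 3 and 78.3, 80.2 and 89.4 CPM in MCS 1 to 3. In KO 1 to 4 it was 47.9, 45.6, 48.8 and 50.1 CPM. Every KO liver was below every control, KO 1 included, and the KO livers differed little among themselves. Akt2 fell by 0.74 on the log2 scale against the 6 controls (SE 0.0843, adjusted p 3.59e-05 in edgeR). It fell by 0.69 against WT Cre (SE 0.0937, adjusted p 0.000302 in edgeR) and by 0.78 against MCS (SE 0.0937, adjusted p 0.000108 in edgeR). These calls passed in 18 of 18 alternatives in each comparison. The log2 fold change between the kinds of control was -0.09 (SE 0.101, adjusted p 0.842 in edgeR). Among 13210 genes with a mean of at least 1 CPM, the spread of Akt2 between KO livers (SD of log2 CPM) was at percentile 2.98.

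Akt1 went the opposite way. This gene, which encodes the most widely expressed AKT kinase, was 42.6 to 49.6 CPM in the controls and 53.0, 80.7, 81.9 and 84.6 CPM in KO 1 to 4. It rose against the 6 controls by a log2 fold change of 0.68 (SE 0.120, adjusted p 0.000778 in edgeR), and all KO livers were above all controls. Akt1 overlaps Mir6939, so reads could be shared.

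Scaled by exon length, the summed level of Akt1 and Akt2 was 22.7 ± 1.22 CPM per kilobase (SD, n = 6) in the controls and 25.1 ± 3.66 CPM per kilobase (SD, n = 4) in KO. KO 1 (19.66) lay below all controls (20.68 to 24.15), and KO 2 to 4 (26.1, 26.83 and 27.66) lay above them. Akt2 made up 49.6% ± 1.32 (SD, n = 6) of the summed Akt1 and Akt2 level in the controls, from 48.4% to 51.9%. In KO 1 to 4 the Akt2 share was 34.2%, 24.5%, 25.5% and 25.4%, below all controls. In the controls Akt1 and Akt2 thus held similar shares, and in every KO liver Akt1 held more than Akt2.

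**Figure D2:**
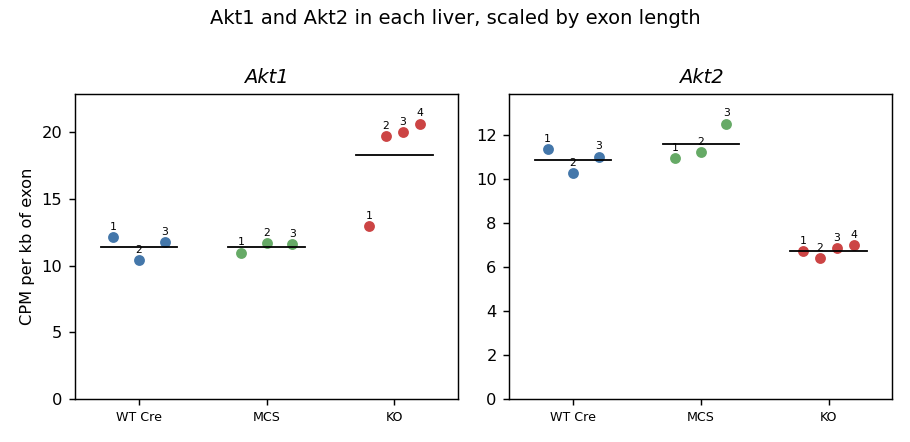
Level of Akt1 and Akt2 in each liver in CPM per kilobase of exon, on linear axes that start at 0 and differ between panels, with points numbered by replicate and bars at the group mean (WT Cre n = 3, MCS n = 3, H3.3 KO n = 4). Akt2 is lower in all 4 KO livers (6.40 to 7.02) than in the 6 controls (10.3 to 12.5), and Akt1 is higher (12.9 to 20.6 against 10.4 to 12.1).

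Foxo1 encodes the transcription factor that AKT holds out of the nucleus (ENSMUSG00000044167.6, chromosome 3 at 52268336 to 52353221, plus strand, overlapped by Gm38034 on its own strand and Gm20402 on the other). Foxo1 was 31.9, 27.3 and 30.2 CPM in WT Cre 1 to 3 and 51.9, 46.1 and 55.9 CPM in MCS 1 to 3. Foxo1 in KO 1 to 4 was 33.6, 33.2, 31.1 and 41.3 CPM. The KO livers were all below the MCS controls and overlapped the WT Cre controls, from which the MCS controls were also separate. Foxo1 fell by 0.56 on the log2 scale against MCS (SE 0.119, adjusted p 0.00375 in edgeR). Against WT Cre the log2 fold change was 0.22 (SE 0.120, adjusted p 0.188 in edgeR), and against the 6 controls -0.22 (SE 0.205, adjusted p 0.444 in edgeR). WT Cre and MCS controls differed by -0.78 (SE 0.129, adjusted p 0.0127 in edgeR), which is also the test of the difference between the effects of KO against each kind of control. That call was lost without MCS 3 (-0.72, adjusted p 0.0621 in edgeR), WT Cre 2 (-0.72, adjusted p 0.0752 in edgeR) or WT Cre 3 (-0.79, adjusted p 0.0907 in edgeR). With library size as the only scaling the fold change against MCS was -0.31 (adjusted p 0.0774 in edgeR). With limma on log2(FPKM + 0.1), from the deposited levels scaled by length and depth, Foxo1 passed neither against MCS (-0.27, adjusted p 0.183) nor between the kinds of control (-0.57, adjusted p 0.137).

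The binding proteins follow, of which Igfbp1 and Igfbp3 are neighbors on chromosome 11. Igfbp1 encodes an acutely regulated binding protein that insulin represses (ENSMUSG00000020429.7, chromosome 11 at 7197782 to 7202546, plus strand). Igfbp1 stood at 37.8, 26.5 and 24.4 CPM in WT Cre 1 to 3 and at 28.1, 52.5 and 286 CPM in MCS 1 to 3. Igfbp1 in KO 1 to 4 stood at 22.7, 40.2, 61.0 and 117 CPM. The highest liver was MCS 3, the groups overlapped, and the spread between MCS controls was at percentile 99.9 and that between KO livers at percentile 97.2 of 13210 genes. The log2 fold change of Igfbp1 was -0.33 (SE 0.865, adjusted p 0.804 in edgeR) against the 6 controls, 1.03 (SE 0.859, adjusted p 0.422 in edgeR) against WT Cre and -1.02 (SE 0.826, adjusted p 0.395 in edgeR) against MCS. Without MCS 3 the sign turned, to 0.83 (adjusted p 0.189 in edgeR) against the remaining controls and to 0.58 (adjusted p 0.523 in edgeR) against MCS. A direction for Igfbp1 in KO could not be set at this spread.

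Igfbp2 encodes the binding protein that is second to IGFBP3 in blood (ENSMUSG00000039323.18, chromosome 1 at 72824503 to 72852474, plus strand). Igfbp2 was 261, 179.8 and 158 CPM in WT Cre 1 to 3 and 330.3, 437 and 319.9 CPM in MCS 1 to 3. KO 1 had 43.3 CPM of Igfbp2, from 664 counts, and KO 2 to 4 had 626, 755 and 845 CPM. Compared with the control mean these were 15.4% in KO 1 and 223%, 268% and 301% in KO 2 to 4. With all 4 KO livers the log2 fold change of Igfbp2 was 1.01 (SE 0.637, adjusted p 0.255 in edgeR) against the 6 controls, 1.51 (SE 0.791, adjusted p 0.198 in edgeR) against WT Cre and 0.65 (SE 0.768, adjusted p 0.569 in edgeR) against MCS. Without KO 1 it was 1.40 (adjusted p 0.00382 in edgeR), 1.89 (adjusted p 4.46e-05 in edgeR) and 1.03 (adjusted p 0.00185 in edgeR). The spread of Igfbp2 between KO livers was at percentile 99.5 of 13210 genes. KO 1 had the lowest depth of the 10 libraries, the highest hepatocyte marker sum of the KO livers (99440 CPM) and the lowest Kupffer marker sum of them (531 CPM), and the part of these in its Igfbp2 level was not tested.

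Igfbp3 encodes the main carrier of IGF1 in blood and is known to come mostly from non-hepatocytes in liver (ENSMUSG00000020427.11, chromosome 11 at 7206086 to 7213923, minus strand). Igfbp3 was 23.4, 25.4 and 18.3 CPM in WT Cre 1 to 3 and 28.6, 34.1 and 22.4 CPM in MCS 1 to 3. In KO 1 to 4 it was 33.2, 33.2, 38.0 and 27.0 CPM. The KO livers lay above all WT Cre controls and overlapped the MCS controls. Igfbp3 rose against WT Cre by a log2 fold change of 0.55 (SE 0.166, adjusted p 0.0254 in edgeR). The call was lost without KO 3 (0.48, adjusted p 0.0656 in edgeR), WT Cre 1 (0.59, adjusted p 0.0620 in edgeR) or WT Cre 3 (0.43, adjusted p 0.109 in edgeR). Against the 6 controls the log2 fold change was 0.37 (SE 0.153, adjusted p 0.0728 in edgeR), which passed without KO 4 (0.46, adjusted p 0.0366 in edgeR) and without MCS 2 (0.48, adjusted p 0.0198 in edgeR), and in 6 of 18 alternatives. Among these were library size only (0.55, adjusted p 0.0104 in edgeR) and limma on log2(FPKM + 0.1) (0.56, adjusted p 0.0181) and log2(FPKM + 1) (0.52, adjusted p 0.0184). Against MCS it was 0.21 (SE 0.164, adjusted p 0.360 in edgeR). Stellate and Kupffer cell marker sums were higher in every KO liver than in every control, as given above, and endothelial sums overlapped. KO 4, the lowest KO liver in Igfbp3, had the highest stellate (796 CPM), endothelial (528 CPM) and Kupffer (1172 CPM) sums of all livers. The part of these cells in Igfbp3 was not tested.

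Igfbp4 encodes a binding protein that inhibits IGF action (ENSMUSG00000017493.12, chromosome 11 at 99041244 to 99054392, plus strand). Igfbp4 was 1012, 925 and 849 CPM in WT Cre 1 to 3 and 1358, 1305 and 1264 CPM in MCS 1 to 3. In KO 1 to 4 it was 884, 880.0, 801 and 747 CPM. All KO livers were below all MCS controls, and KO 1 and 2 lay among the WT Cre controls. Igfbp4 fell by 0.66 on the log2 scale against MCS (SE 0.114, adjusted p 0.00110 in edgeR), in 18 of 18 alternatives. Against the 6 controls it fell by 0.43 (SE 0.150, adjusted p 0.0372 in edgeR). That call was lost without KO 2, 3 or 4 or any MCS control (adjusted p 0.0645 to 0.0961 in edgeR), and it passed in 8 of 18 alternatives, with -0.25 (adjusted p 0.138 in edgeR) under library size only and -0.16 (adjusted p 0.247) with limma on log2(FPKM + 0.1). Against WT Cre the log2 fold change was -0.17 (SE 0.115, adjusted p 0.310 in edgeR), and the log2 fold change of WT Cre against MCS was -0.50 (SE 0.123, adjusted p 0.0963 in edgeR), which passed without KO 1 (adjusted p 0.0237 in edgeR) and with DESeq2 (adjusted p 0.000445).

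Counted over the 10 genes, 2 passed against the 6 controls, both lower, while 36.3% of all genes tested passed in this comparison (19.7% higher and 16.6% lower). At an unadjusted p under 0.05 there were 6 (45.3% of all genes), and 0 had an absolute log2 fold change over 1 as well as passing (18.7% of all genes). Their median log2 fold change was -0.23, against -0.003 over all genes. The sign of this median depended on the control. It was 0.32 against WT Cre (0.016 over all genes) and -0.31 against MCS (0.006 over all genes). For WT Cre against MCS it was -0.24. Against WT Cre 2 passed (28.4% of all genes), 1 higher and 1 lower (15.3% and 13.1% of all genes), and 0 with an absolute log2 fold change over 1 (15.9% of all genes). Against MCS 5 passed (32.0% of all genes), 1 higher and 4 lower (17.3% and 14.8% of all genes), and Irs1 alone had an absolute log2 fold change over 1 (17.5% of all genes). Between the kinds of control Foxo1 passed, 1 of 10 (0.927% of all genes), and it was lower in WT Cre (0.441% of all genes were higher and 0.486% lower), with 0 past an absolute log2 fold change of 1 (0.641% of all genes). KO and control livers did not overlap for 1 gene against the 6 controls (24.5% of all genes), 2 against WT Cre (36.0% of all genes) and 5 against MCS (35.5% of all genes). WT Cre and MCS controls did not overlap for 5 (22.2% of all genes). The comparisons share livers. Without KO 1 the numbers passed were 6 (40.9% of all genes), 4 (36.9%), 7 (39.6%) and 2 (2.33%) in the same order of comparisons, and leaving out other single livers gave 1 or 2 against the 6 controls.

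**Figure D3:**
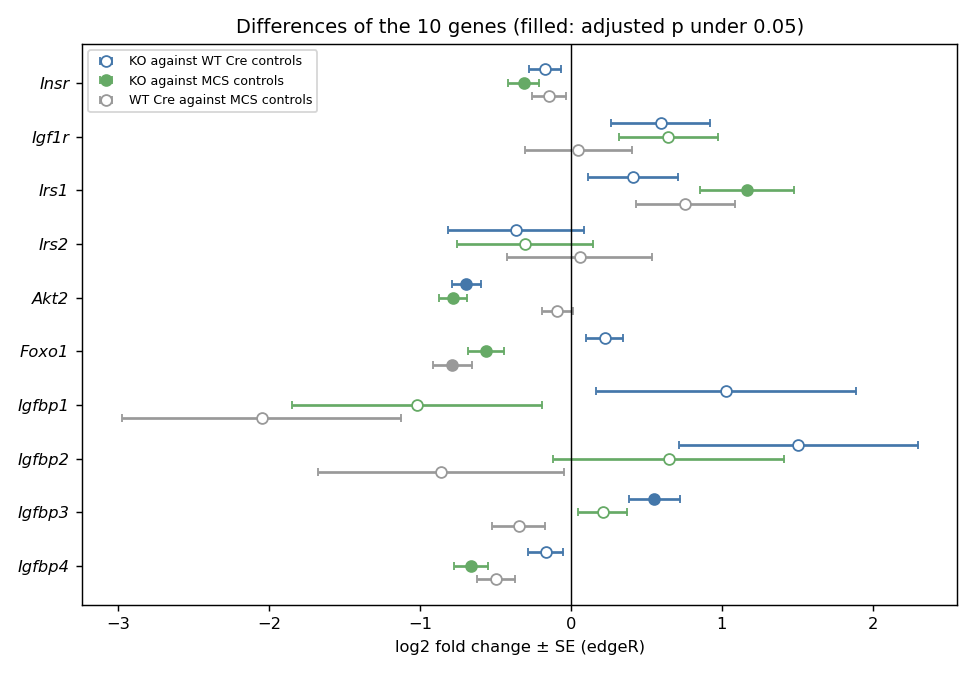
Log2 fold change (horizontal axis) with its SE of each of the 10 genes, for H3.3 KO against WT Cre, H3.3 KO against MCS and WT Cre against MCS, with filled points at an adjusted p under 0.05 by edgeR. Akt2 is filled and of similar size against both kinds of control (-0.69 and -0.78), and Foxo1 is filled against MCS (-0.56) and between the controls (-0.78).

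Levels between genes were compared per kilobase of exon. In WT Cre controls Igfbp4 was highest at 210.3 ± 18.5 CPM per kilobase (SD, n = 3), then Igfbp2 at 108 ± 29.4, Igfbp1 at 19.4 ± 4.74 and Akt2 at 10.9 ± 0.563. Insr (7.66 ± 0.222) and Igfbp3 (7.15 ± 1.17) overlapped, and Foxo1 (3.44 ± 0.269), Irs2 (2.29 ± 0.742), Irs1 (0.976 ± 0.193) and Igf1r (0.155 ± 0.0485) followed without overlap. The order in MCS controls differed in that Igfbp1 overlapped Igfbp2 and that Igfbp3 (9.06 ± 1.88) and Insr (8.46 ± 0.501) changed places within their overlap. In KO Igfbp2 (307 ± 195, SD, n = 4) and Igfbp4 (188 ± 15.0) overlapped at the top, Insr (6.81 ± 0.677) and Akt2 (6.75 ± 0.263) overlapped below Igfbp3 (10.5 ± 1.44), and Irs2 (1.76 ± 0.841) overlapped Irs1 (1.29 ± 0.571).

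The rest of the IGF axis was described by 18 genes, of which 6 rose and 2 fell against the 6 controls (19.7% of all genes rose and 16.6% fell). The list's median log2 fold change was 0.80. Igf1, the main hepatic IGF hormone, was lowest at 466, had a median of 575 and was highest at 736 CPM in the controls, and was 277, 320.1, 341 and 338 CPM in KO 1 to 4. It fell by 0.88 on the log2 scale (SE 0.145, adjusted p 0.000509 in edgeR), passing in 16 of 18 alternatives. With limma on log2(FPKM + 0.1) and log2(FPKM + 1) the change of Igf1 was -0.34 on either scale and did not pass (adjusted p 0.0825 and 0.0864). Igfals, which encodes the liver's acid-labile subunit of the circulating IGF complex, was 72.0 to 129 CPM in the controls and 93.5 to 123 CPM in KO (0.07, SE 0.150, adjusted p 0.747 in edgeR). Ceacam1, a promoter of insulin clearance, fell by 0.72 (SE 0.0943, adjusted p 9.58e-05 in edgeR).

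Igf2, the fetal IGF hormone gene that adult mouse liver keeps silent, had 3 counts over the 6 controls, of which 4 had 0. It had 7356 counts in KO, at 2.21 CPM in KO 1 and 73.5, 115 and 105 CPM in KO 2 to 4. The ratio of pooled levels was 3713, with a 95% counting interval of 1270 to 18010 that covers counting error only, and the gene passed in 18 of 18 alternatives (adjusted p 0.000308 in edgeR). Gm49394 and Mir483 overlap Igf2 on its strand, so their reads could be shared. In Igf2, as in Igfbp2, KO 1 was the lowest KO liver.

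Igfbp5, whose gene is the neighbor of Igfbp2 on chromosome 1 and is transcribed toward it (72857932 to 72874884, minus strand), was 3.17 to 7.98 CPM in the controls and 81.6, 51.9, 37.2 and 24.0 CPM in KO 1 to 4. It rose by 3.35 (SE 0.355, adjusted p 8.74e-05 in edgeR), and there KO 1 was the highest KO liver. Igfbp7 rose from 55.5 to 65.3 CPM in the controls to 77.2 to 120.2 CPM in KO (0.65, SE 0.115, adjusted p 0.000816 in edgeR). Both are known stellate or endothelial cell products. The stellate marker sum was 218 to 280 CPM in the controls and 497, 558, 548.5 and 796 CPM in KO 1 to 4. That sum was thus lowest in KO 1, where Igfbp5 was highest, and highest in KO 4, where Igfbp5 was lowest. The part of these cells in either rise was not tested. The others that rose were Igf2r, Igf2bp3 and Pappa2. Igf2r did not pass against WT Cre alone, and Pappa2 passed against neither kind of control alone. Pappa2, a protease for binding proteins named here after its values were seen, had 0 counts in the 6 controls and in KO 1 and 195 in KO, at least 98.4-fold more against a floor of 3 counts over the control group, and it lost its call without KO 2, 3 or 4 (adjusted p 0.0698 to 0.0729 in edgeR). With Pappa2 at that bound the list's median stayed at 0.80.

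**Figure D4:**
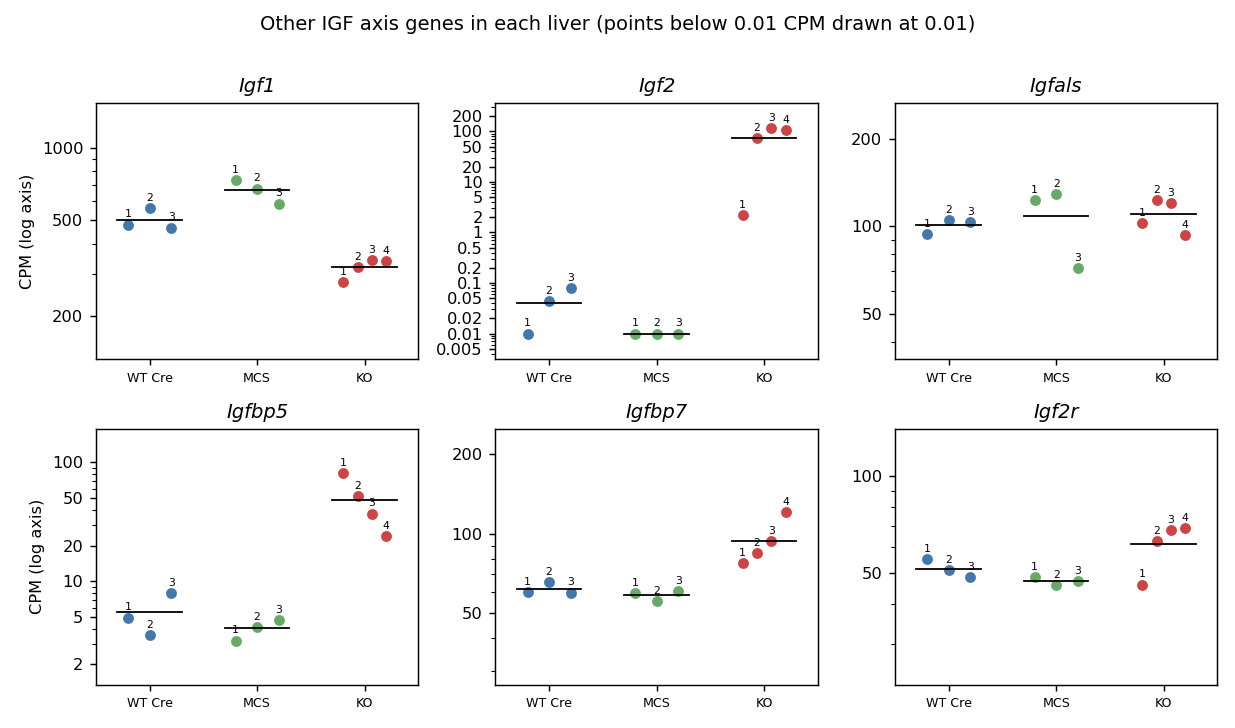
Level of 6 further IGF axis genes in each liver, in CPM on log axes that differ between panels, with points numbered by replicate, bars at the group mean (WT Cre n = 3, MCS n = 3, H3.3 KO n = 4) and values or means under 0.01 CPM drawn at 0.01. Igf1 is lower in all KO livers (277 to 341 CPM) than in all controls (466 to 736 CPM), Igf2 reaches 115 CPM in KO, and Igfals overlaps between groups.

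Downstream of the receptor, the insulin signal relay (27 genes besides the members) held 6 genes that rose and 3 that fell, with a median log2 fold change of 0.04. Over all genes 19.7% rose and 16.6% fell. Besides Akt1, Sh2b2, an adaptor of the receptor, rose by 0.88 (SE 0.314, adjusted p 0.0432 in edgeR), passing in 9 of 18 alternatives. Leaving out any 1 liver other than KO 1 or MCS 3 lost the call of Sh2b2 (adjusted p 0.0697 to 0.105 in edgeR). Pik3r1, the regulatory subunit of PI3-kinase, fell by 0.54 (SE 0.149, adjusted p 0.0123 in edgeR) and Mtor, the kinase of the growth arm, by 0.53 (SE 0.132, adjusted p 0.00705 in edgeR). Foxo4, a relative of Foxo1, fell by 0.40 (SE 0.0823, adjusted p 0.00225 in edgeR). Against WT Cre alone Pik3r1 and Mtor did not pass, and against MCS alone Sh2b2 did not. With library size as the only scaling Pik3r1 (-0.36, adjusted p 0.0678 in edgeR) and Foxo4 (-0.22, adjusted p 0.0883 in edgeR) did not pass. With limma on log2(FPKM + 0.1) neither Mtor (-0.21, adjusted p 0.306) nor Foxo4 (-0.21, adjusted p 0.0896) passed.

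The insulin signal brakes (20 genes) split evenly, with 5 higher and 5 lower (19.7% and 16.6% of all genes) and a median of -0.03. Grb10, an adaptor that inhibits the insulin receptor, rose by 0.89 (SE 0.154, adjusted p 0.000691 in edgeR), from 2.12 to 3.05 CPM in the controls to 4.04 to 5.66 CPM in KO. Prkcd, a protein kinase C, rose by 0.88 (SE 0.192, adjusted p 0.00361 in edgeR) and Ptpn1, the phosphatase that switches off the receptor, by 0.80 (SE 0.184, adjusted p 0.00489 in edgeR). Grb7, a relative of Grb10, fell by 1.04 (SE 0.156, adjusted p 0.000259 in edgeR). Enpp1, an ectoenzyme that inhibits the receptor, fell by 0.89 (SE 0.142, adjusted p 0.000392 in edgeR) and Phlpp1, an AKT phosphatase, by 0.61 (SE 0.128, adjusted p 0.00254 in edgeR).

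Of 20 FOXO1 target genes 5 rose and 7 fell (19.7% and 16.6% of all genes), with a median of -0.15. G6pc, the last enzyme of glucose release, was 338 to 651 CPM in the controls and 158, 149, 150.5 and 128 CPM in KO 1 to 4 (-1.71, SE 0.199, adjusted p 4.09e-05 in edgeR). Pck1, the key gluconeogenic enzyme, was 1906 to 3421 CPM in the controls and 653, 1638, 1531 and 1751 CPM in KO 1 to 4 (-0.95, SE 0.257, adjusted p 0.0118 in edgeR), and it did not pass against WT Cre alone (-0.84, adjusted p 0.0610 in edgeR). Ppargc1a, their coactivator, fell by 1.00 (SE 0.177, adjusted p 0.000802 in edgeR). Tat, which breaks down tyrosine, fell by 1.05 (SE 0.317, adjusted p 0.0231 in edgeR), a call lost without KO 1, 2 or 3 (adjusted p 0.0507 to 0.0640 in edgeR). Tat did not pass against WT Cre alone. The highest fold changes were those of Gadd45a at 1.96 (SE 0.520, adjusted p 0.0164 in edgeR), Cdkn1a at 1.41 (SE 0.453, adjusted p 0.0363 in edgeR) and Bcl2l11 at 1.30 (SE 0.242, adjusted p 0.00145 in edgeR). Against WT Cre alone Gadd45a (adjusted p 0.0895 in edgeR) and Cdkn1a (0.119) did not pass, and neither did Cdkn1a against MCS (0.107). Cdkn1a passed in 9 of 18 alternatives and was lost without any 1 of the KO livers (adjusted p 0.0620 to 0.0824 in edgeR), MCS 1 (0.0552), WT Cre 1 (0.0656) or WT Cre 3 (0.0588). Without KO 2 or without KO 3 the number of targets that passed was 7 in place of 12. The number passed over all genes, 8155 with every liver (36.3%), was also lower without either of these livers.

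Among 16 insulin-induced metabolic genes 1 rose and 6 fell (19.7% and 16.6% of all genes), with a median of -0.10. Pklr, the liver pyruvate kinase, fell by 1.51 (SE 0.291, adjusted p 0.00212 in edgeR) and Me1, the malic enzyme, by 1.37 (SE 0.428, adjusted p 0.0311 in edgeR), the latter passing in 9 of 18 alternatives. Me1 was lost without KO 2, 3 or 4 or any WT Cre control (adjusted p 0.0520 to 0.0933 in edgeR), and it did not pass against MCS alone. Acaca, the first enzyme of fatty acid synthesis, rose by 0.72 (SE 0.137, adjusted p 0.00133 in edgeR). Srebf1, the lipogenic regulator that insulin induces, did not pass (-0.46, SE 0.418, adjusted p 0.438 in edgeR), with MCS 3 at 83.7 and KO 4 at 59.4 CPM and all others from 197 to 326 CPM. MCS 3, low in Srebf1, was the liver highest in Igfbp1 and Irs2. Against WT Cre, 5 relay genes rose and 1 fell, 3 brakes rose and 5 fell, 5 IGF axis genes rose and 3 fell, 2 FOXO1 targets rose and 4 fell, and 1 insulin-induced gene rose and 5 fell (15.3% of all genes rose and 13.1% fell). Against MCS these were 4 and 3, 5 and 6, 6 and 2, 4 and 8, and 2 and 4 (17.3% of all genes rose and 14.8% fell). Between the kinds of control Igf2bp2 and Pdk4 passed, both higher in WT Cre.

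**Figure D5:**
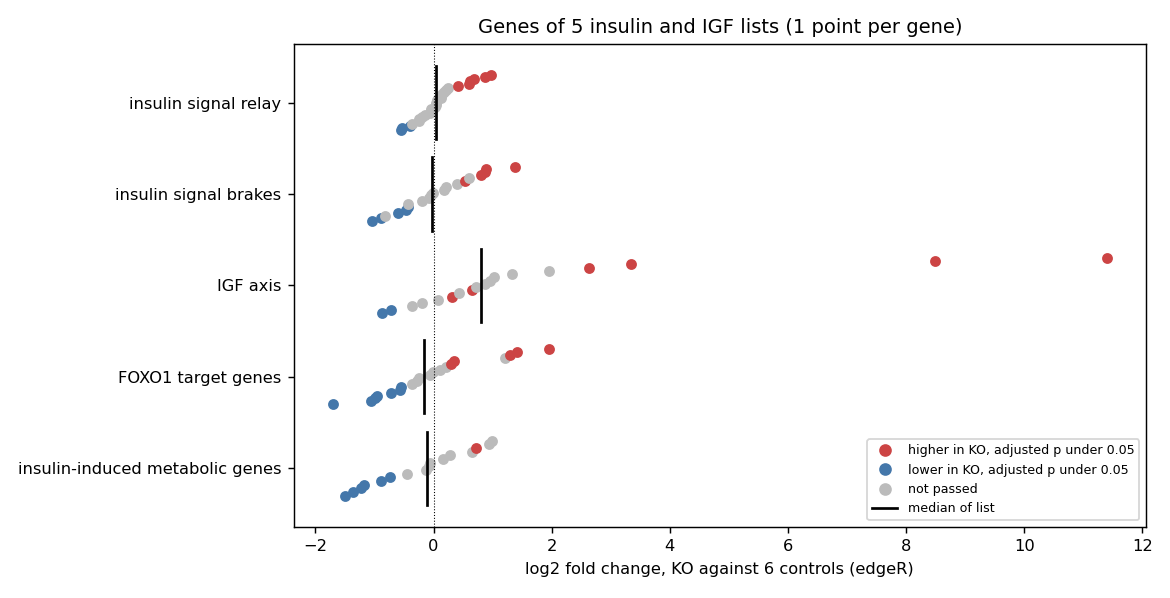
Fitted log2 fold change of H3.3 KO against 6 controls (horizontal axis) for each gene of 5 lists, 1 point per gene, red where higher and blue where lower at an adjusted p under 0.05 by edgeR, gray otherwise, with a line at the list's median. Medians lie between -0.15 and 0.80, and the points farthest right are Igf2 and Pappa2, whose fitted values depend on the prior count because the controls had 3 and 0 counts.

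For each of the 10 genes, the genes closest in pattern were those with the highest Pearson r of log2 CPM over the 10 livers, among 13210 genes. The livers share the KO contrast and their depth, so r is a description. Akt2 was nearest to Card6 (0.994) and 9430038I01Rik (0.988), Igfbp4 to Rbm39 (0.986) and Mup13 (0.973) and Foxo1 to Zbtb16 (0.952) and Snhg5 (0.940). Insr was nearest to Zmat1 (0.973) and Cyp2c29 (0.963), and Igf1r to Ankrd44 (0.981) and Setd7 (0.951). Irs1 was nearest to Kctd10 (0.977) and Inpp5a (0.976), and Irs2 to Hdac4 (0.960) and Zfp790 (0.939). Igfbp1 was nearest to Cldn14 (0.948) and Rbm14 (0.941), Igfbp2 to Ep400 (0.960) and Urad (0.939) and Igfbp3 to Smarcb1 (0.949) and Spats2 (0.932). None of these 20 is another of the 10 genes.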

How the data were processed

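Poly(A) RNA from 10 whole livers was sequenced. Per the paper's methods, the authors trimmed reads with Trim Galore, aligned them to mm10 with STAR, and used HOMER for counting over genes; the submitters' notes also name HTSeq and Cufflinks. The deposited count table holds raw counts per gene, and the authors also deposited FPKM values for each library, which entered only 2 alternatives. The strand setting of the counting was not given in the sources used here, so reads of overlapping genes may be shared.

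Genes with at least 10 counts in total were tested in edgeR (4.0.16, R 4.3.3) with TMM scaling, a quasi-likelihood F test (2-sided) and Benjamini-Hochberg adjustment over all genes tested, and called at an adjusted p under 0.05. KO was compared with 6 controls in a 2-group model and with each kind of control in a 3-group model. CPM values use the TMM-scaled library size, log2 CPM a prior count of 2, and CPM per kilobase the exon union of GENCODE M21. The SE is the absolute log2 fold change over the square root of F. Counts ran from 14998426 to 26096141 per library, which sets the precision of low genes. Intervals and floors of 3 counts cover counting error only. Each sample is 1 mouse liver per the labels.

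The 10 genes and the gene lists were chosen with earlier results of these data known. Besides the 10, genes of each list were named if they passed with a mean of at least 1 CPM and were among the 3 with the largest rise or fall, Igf1, Igf2, Igfals, Pck1, G6pc, Ppargc1a and Srebf1 whatever their values; for each of the 10, the 2 genes closest by Pearson r were named. Genes withheld from this text are not reported here. Alternatives were DESeq2 (1.42.0), RLE size factors, library size only, other count filters, limma (3.58.1) on log2(FPKM + 1) or log2(FPKM + 0.1), a replicate block, and each liver left out. Fold changes from FPKM are on that log2 scale and understate changes of low genes. The scripts were tested on simulated data.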

Additional observations from a re-analysis of the deposited data

Results flagged for a closer look

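Among 36 sets of values examined with Dixon's criterion, 6 held 1 liver far from the rest of its group, where chance gives about 1 in 20. Igfbp1 in MCS 3 was 286 CPM, against 24.4 to 52.5 CPM in the other controls. Igfbp2 in KO 1 was 43.3 CPM, against 626 to 845 CPM in KO 2 to 4. Igf2 in KO 1 was 2.21 CPM, against 73.5 to 115 CPM in KO 2 to 4. Pck1 in KO 1 was 653 CPM, against 1531 to 1751 CPM in KO 2 to 4. Srebf1 in KO 4 was 59.4 CPM, against 197 to 218 CPM in KO 1 to 3. Srebf1 in MCS 3 was 83.7 CPM, against 219 to 326 CPM in the other controls.

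The effect of KO on Foxo1 differed by 0.78 on the log2 scale between both kinds of control (adjusted p 0.0127 in edgeR), with the WT Cre controls at 27.3 to 31.9 CPM and the MCS controls at 46.1 to 55.9 CPM. The call was lost without MCS 3 (adjusted p 0.0621 in edgeR), WT Cre 2 (0.0752) or WT Cre 3 (0.0907).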

How the results depend on the processing

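Of 720 alternative log2 fold changes of the 10 genes, 647 kept direction and side of the threshold, 37 lost the threshold, 18 gained it and 18 changed sign, and the cause was not tested. Leaving out 1 liver moved the number of the 10 genes passed from 2 to between 1 and 6 against the 6 controls, from 2 to between 1 and 4 against WT Cre, from 5 to between 3 and 7 against MCS, and from 1 to between 0 and 2 between the kinds of control. With library size only, and with limma on either FPKM scale, 3 of the 10 genes passed against the MCS controls. Between the kinds of control 2 passed with DESeq2 and 0 with limma on either FPKM scale, where edgeR had 3 at an unadjusted p under 0.05 (10.7% of all genes). For all genes between the kinds of control, 208 passed in edgeR, 651 in DESeq2, 315 without the count filter, 386 with the replicate block and 70 to 517 with 1 liver left out. With limma these numbered 201 on log2(FPKM + 0.1) and 200 on log2(FPKM + 1). Of 101 list genes 46 passed against the 6 controls, and 34 to 52 under the alternatives. Over all genes 8155 passed in that comparison (36.3%), and this number moved as well. It was lowest with the replicate block and highest without KO 1, at 9077 (40.9%). Library size only shifted the median of all genes by 0.18 against the 6 controls. The shift was 0.11 against WT Cre, 0.245 against MCS and 0.136 between the kinds of control.

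Signs turned as follows. Against the 6 controls Igfbp1 was 0.34 and 0.32 and Foxo1 0.012 and 0.0066 with limma on log2(FPKM + 0.1) and log2(FPKM + 1), and with 1 liver left out Igfbp1 ran from -0.88 to 0.83 and Igfals from -0.014 to 0.14. Against MCS Irs2 ran from -0.61 to 0.21 and Igfbp1 from -1.56 to 0.58, in each case with the sign turned only without MCS 3. Between the kinds of control Insr was 0.044 and 0.040 and Akt2 0.036 and 0.034 on those FPKM scales, and Akt2 was 0.052 with library size only. There Irs2 ran from -0.24 to 0.57 and Igf1r from -0.24 to 0.28 with 1 liver left out (Irs2 -0.20, -0.10 and -0.24 and Igf1r -0.055, -0.056 and -0.24 without MCS 1, MCS 2 and WT Cre 1). Same-numbered livers of different groups deviated together by correlations of -0.039 to 0.111, and differently numbered ones by -0.154 to 0.194. With 3 or 4 livers a group, these values cannot show whether same-numbered livers shared anything besides a number. With the replicate block 2 of the 10 genes passed against the 6 controls and 2 against WT Cre. Against MCS 4 passed, and between the kinds of control 1. Of the 101 list genes 36 passed against the 6 controls. Over all genes the block lowered the number passed in every comparison of KO with controls. Between the kinds of control it raised that number, as given above. Under that block, Igfbp3 (0.48, adjusted p 0.0358 in edgeR) passed against the 6 controls, Igfbp4 (-0.39, 0.123), Sh2b2 (0.81, 0.0670), Cdkn1a (1.55, 0.0668), Tat (-1.20, 0.0516) and Me1 (-1.35, 0.0612) did not, and neither did Insr against MCS (-0.26, 0.0889).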
